A study of Mus musculus with 9 samples.

Results

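HC11-ΔSAP cells were compared with HC11-FL control cells across all transcripts measured on 3 Affymetrix mouse gene arrays of each strain. All 6 arrays of the 9 in the series that carry these labels were used, together with the 20289 of 34760 probesets whose mean log2 expression over them was at least 4. HC11 is an epithelial line from the mammary gland of a mid-pregnant BALB/c mouse and, as the study states, carries a mutated p53 gene. HC11-FL cells stably express full length Mkl1 and HC11-ΔSAP cells Mkl1 without its SAP domain, each fused to RFP at the C-terminus, on top of the Mkl1 gene of the line itself. The third strain, HC11-mutB1, carries Mkl1 with alanine substitutions in the B1 domain, which binds serum response factor (SRF). Its values are given only beside those of the other strains. Its arrays also enter the estimate of the spread behind every SE and p-value of the main fit. All cultures were starved for 48 h in medium with 0.03% FCS and without EGF. Each construct stands for 1 strain, selected with Geneticin and sorted as RFP-positive cells, and a strain with the empty vector was not analysed here. The replicates are called triplicates without a statement that they were separate cultures. The p-values thus measure the spread between replicate arrays, pooled over the 3 strains, which may be technical. A change that arose in 1 strain for any other reason cannot be told apart from one that depends on the construct.

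Mkl1, now named Mrtfa, is a transcriptional co-activator that shuttles between cytoplasm and nucleus as the pool of free actin changes. In the nucleus it binds SRF and raises the transcription of cytoskeletal and adhesion genes. Its SAP domain is of a kind found in several nuclear proteins that bind DNA. HC11 cells are a common model of the mammary epithelium. They keep both basal and luminal features and can be induced to make milk proteins.

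Across the 20289 probesets, r was 0.992 to 0.995 between arrays within a strain and 0.973 to 0.977 between HC11-FL and HC11-ΔSAP arrays. The values share a probe design and a normalization, so these coefficients describe the arrays only. All 10 epithelial markers were expressed, with averages over the list of 9.85 to 9.90 in HC11-FL and 9.53 to 9.56 in HC11-ΔSAP arrays on the log2 scale. Of the fibroblast markers 8 of 10 were expressed, at 5.86 to 5.96 and 5.92 to 5.96, while Lum and Fap lay under the minimum. Only 3 of 9 leukocyte, 3 of 10 endothelial and 4 of 7 adipocyte markers reached it, and Ptprc, Pecam1 and Adipoq, which define those cells, did not. A fall in the RNA of a gene and a fall in the number of cells that express it cannot be told apart in such samples. Among expressed probesets 4684 (23.1%) hold exactly the same value in at least 1 pair of the 6 arrays, which makes the SD of such probesets too small where the pair lies within a strain. Repeats within the HC11-mutB1 arrays are not in this count but also enter the spread in the fit. Slc15a2, for example, read 6.82 in all 3 of them.

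The Mrtfa probeset itself read 10.08, 9.86 and 9.92 in the HC11-FL arrays and 9.55, 9.47 and 9.41 in the HC11-ΔSAP arrays. The strains did not overlap, and the difference was -0.48 on the log2 scale (SE 0.071, adjusted p = 0.0018). Whether its probes read the construct, the endogenous transcript or the deleted part was not tested. At the protein level, the study reports strains sorted for similar Mkl1-RFP amounts and approximately equal overexpression by immunoblot. Mrtfb, the other family member in these cells, read 8.46, 8.47 and 8.53 and 8.73, 8.65 and 8.61, and Srf 7.89, 7.84 and 7.86 and 7.9, 7.83 and 7.83 in the same order. Neither passed the test (adjusted p = 0.038 and 0.97).

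Differences were tested with limma over all probesets and adjusted by Benjamini and Hochberg. To pass, a probeset needed an adjusted p no higher than 0.01, a change of 2-fold or more and the expression minimum of 4. By these filters 305 probesets were higher in HC11-ΔSAP cells (1.5% of those tested) and 311 lower (1.53%), and in all of them the 3 arrays of 1 strain lay above the 3 of the other. By the adjusted p alone, whatever the fold, 2414 probesets were higher (11.9%) and 2049 lower (10.1%). With 1 probeset per gene, 273 of 13188 genes rose (2.07%) and 275 fell (2.09%). A further 23 probesets that were higher and 29 that were lower by all filters did not have a single gene symbol. They are left out of every gene count and gene ranking below. The median log2 fold change over genes was 0.00067. The sizes were also balanced. The median fold was 2.51 for probesets that rose and 2.52 for those that fell, 46 probesets in each direction changed by over 4-fold and 12 in each by over 8-fold. The probes nearest the expression minimum were those of Mro, at a mean of 3.999 just under it, and of Gm10457, at 4.000 just over it, and neither differed beyond the threshold.

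**Figure D1:**
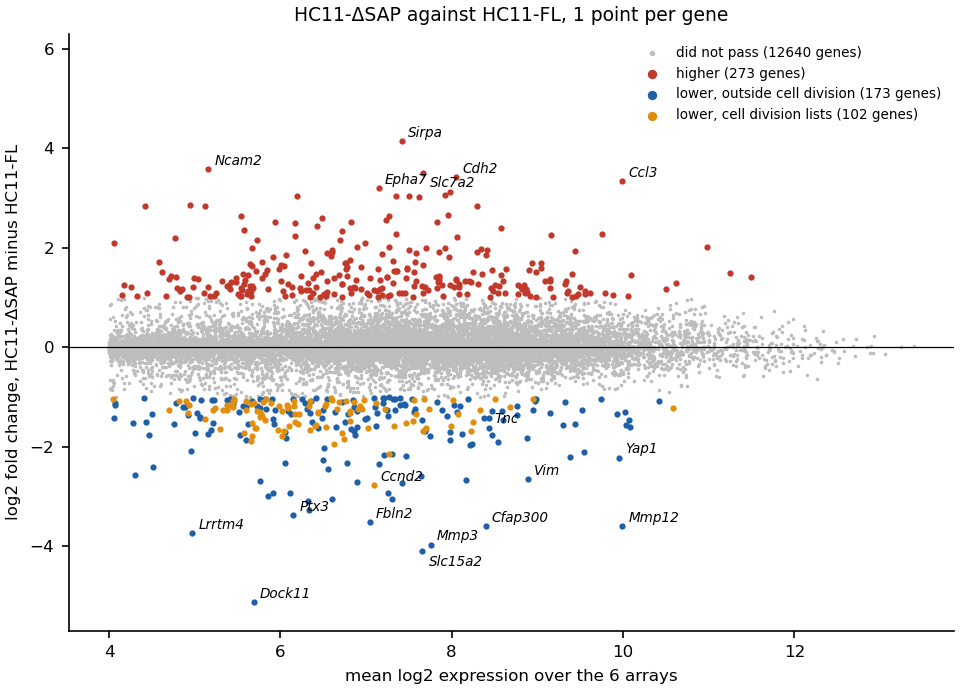
Mean log2 expression over the 6 arrays (x-axis) against the log2 fold change of HC11-ΔSAP minus HC11-FL cells (y-axis), 1 point per gene with 1 probeset each. The 273 genes that rose (red) and the 173 that fell outside the cell division lists (blue) lie at low and at high levels, while the 102 lower genes of the cell division lists (orange) stay within 3 log2 units of 0.

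The directions differed in content. Of 293 expressed genes in 3 lists of cell division (mitosis, DNA replication, cyclins and their kinases), 102 fell by all filters (34.8%) and 0 rose (0%). At any fold (the adjusted p alone), 210 were lower (71.7%) and 9 higher (3.07%), and in the same limma fit at an unadjusted p under 0.05 these were 245 and 15. Among the 12895 genes outside these lists, 273 rose (2.12%) and 173 fell (1.34%), and at any fold 2100 were higher (16.3%) and 1377 lower (10.7%). These are the shares to set beside the counts of the other lists and families below. Every gene that rose thus lay outside cell division, against 173 of the 275 that fell. The lists do not hold every gene of the cell cycle, and Dtl, G2e3, Cip2a, Gas2l3 and 5 histone genes (H1f5, H2ac4, H2bc4, H2bc14 and H4c6) count as outside.

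Within cell division the folds were moderate. The largest was that of cyclin D2 (Ccnd2), which pairs with Cdk4 and Cdk6 in G1. It read 8.39, 8.44 and 8.6 in HC11-FL and 5.68, 5.62 and 5.82 in HC11-ΔSAP arrays, 6.82-fold lower (log2 SE 0.075, adjusted p = 3.2e-07). The helicase subunit Mcm6 followed with 4.42-fold, then the kinetochore gene Nuf2 (3.87-fold), the motor Cenpe (3.72-fold), the kinase Nek2 (3.58-fold) and Shcbp1 (3.47-fold). The 9 members that were higher did not reach the fold minimum. They were Cdc25b, Dsn1, Rnaseh2a, Pold2, Orc3, Gins3, E2f1, Rbl2 and Rb1, with Rb1 and Rbl2 encoding pocket proteins that restrain E2F factors. Rb1 differed by 0.68 and Rbl2 by 0.41 on the log2 scale.

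Promoters of these genes were read from RefSeq (GRCm38.p6), 250 bases before to 50 after each start. The table held 13259 promoters of 10476 tested genes, among them 193 of the genes that rose and, of those that fell, 139 outside cell division and 83 within it. The letters TTTGAA, a core of the cell cycle homology region (CHR), stood on either strand in 48 of 92 promoters of the lower cell division genes (52.2%), against 11.6% of all promoters, 9.84% of those of the genes that rose and 10.5% of those of the other genes that fell. The letters CCAAT, on either strand, stood in 69.6% of them against 37.1% of all. The promoter of Cdk1, the mitotic kinase, is shown because it holds both motifs in several copies, with CHR and CCAAT letters in capitals (chr10:69352863-69353162, minus strand).
Cdk1: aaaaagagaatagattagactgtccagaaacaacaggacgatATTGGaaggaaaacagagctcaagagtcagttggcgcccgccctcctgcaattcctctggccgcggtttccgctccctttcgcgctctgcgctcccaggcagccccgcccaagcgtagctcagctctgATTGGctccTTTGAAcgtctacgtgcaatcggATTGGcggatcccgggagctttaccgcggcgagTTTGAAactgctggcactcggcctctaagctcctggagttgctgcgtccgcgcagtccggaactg
The CHR letters begin 71 and 15 bases before the start and the CCAAT letters, here on the opposite strand, 208, 80 and 48 bases before it. Cdk1 fell 2.36-fold, from a mean of 8.35 to 7.11. A match is a description of the window and was not tested as a site.

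The genes that rose most were led by cell surface proteins. Sirpa, an inhibitory receptor for CD47, read 5.37, 5.29 and 5.38 in the HC11-FL arrays and 9.39, 9.57 and 9.49 in the HC11-ΔSAP arrays, a rise of 17.6-fold (log2 SE 0.054, adjusted p = 4.2e-08). Ncam2, a neural cell adhesion molecule, read 3.29, 3.4 and 3.4 and 6.66, 7.07 and 7.11 in the same order. The HC11-FL values lie under the expression minimum, so that the fold of 12 is less certain than its direction. N-cadherin (Cdh2), a calcium-dependent adhesion protein of mesenchymal and neural cells, rose 10.7-fold, from 6.23, 6.49 and 6.29 to 9.73, 9.77 and 9.79. The lowest HC11-ΔSAP array lay more than 3 log2 units above the highest HC11-FL array for each of these genes. Mesothelin (Msln) rose 8.21-fold and the adhesion protein Amigo2 5.76-fold. Sirpa belongs to a family with close copies, and whether its probes separate them was not tested.

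Some further cadherins also rose. Of 11 expressed genes with a Cdh symbol 3 rose by all filters and 0 fell, with a median log2 fold change of 0.1. At an unadjusted p under 0.05 in limma 4 were higher and 1 lower, so most did not differ. The 3 that rose were Cdh2, P-cadherin (Cdh3, 3.01-fold) and Cdh13 (3.05-fold). Of 17 expressed protocadherins 5 rose and 0 fell (14 higher and 1 lower at an unadjusted p under 0.05), with a median log2 fold change of 0.54 against 0.00067 over all genes. These were Pcdh18 (3.22-fold), Pcdh19 (2.69-fold) and the clustered genes Pcdhb22, Pcdhb16 and Pcdhb7 (2.54, 2.29 and 2.28-fold), whose close copies the probes may not separate. In the list of cadherins and junctions, 4 of 45 expressed members rose (8.89%) and 1 fell (2.22%). The other riser was Nectin3 (2.88-fold), and the member that fell was the claudin Cldn9, which read 7.47, 7.69 and 7.58 in HC11-FL and 4.91, 4.51 and 4.54 in HC11-ΔSAP arrays. E-cadherin (Cdh1) read 10.67, 10.64 and 10.62 and 10.98, 11.03 and 11.01, a difference of 0.37 (adjusted p = 0.00031), and Epcam differed by 0.42 (adjusted p = 0.00031). Both epithelial adhesion genes were thus slightly higher, under the fold minimum, while Cdh2 rose strongly. Most epithelial markers went the other way. Of the 10 markers, which include Cdh1 and Epcam, 3 were higher and 6 lower at any fold, with a median log2 fold change of -0.3. By all filters 0 of these markers rose and 2 fell.

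**Figure D2:**
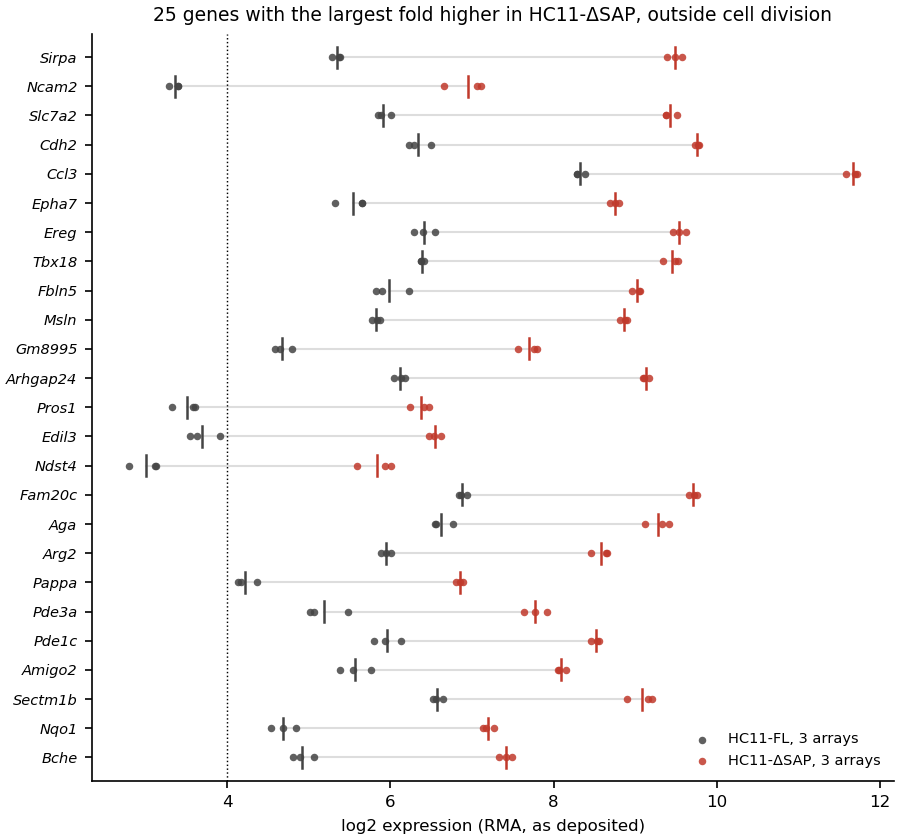
Log2 expression as deposited (x-axis) of the 25 genes outside cell division with the largest fold higher in HC11-ΔSAP cells, with 1 point per array (grey HC11-FL, red HC11-ΔSAP), a tick at each strain's mean and a dotted line at the expression minimum of 4. The strains do not overlap for any of the genes, and the HC11-FL means of Ncam2, Pros1, Edil3 and Ndst4 lie under the minimum.

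Guidance molecules, which steer axons and other migrating cells, were mostly higher where they changed. Of 49 expressed members of the list 6 rose by all filters (12.2%) and 2 fell (4.08%), against 2.12% and 1.34% of genes outside cell division. At any fold 17 were higher (34.7%) and 4 lower (8.16%), against 16.3% and 10.7%. Epha7, a receptor kinase for ephrins, read 5.32, 5.65 and 5.65 in HC11-FL and 8.69, 8.76 and 8.8 in HC11-ΔSAP arrays (9.23-fold, adjusted p = 2e-06). The secreted cues Slit2 (3-fold), netrin 1 (Ntn1, 2.67-fold), Sema3d (2.6-fold) and Sema3a (2.12-fold) and the membrane semaphorin Sema4a (2.18-fold) followed. The members that fell were Efnb2, an ephrin ligand, by 2.99-fold, and Lrrtm4, a synaptic adhesion protein. Lrrtm4 read 6.7, 6.82 and 6.99 in HC11-FL and 3.25, 3.03 and 3.04 in HC11-ΔSAP arrays. As its level in HC11-ΔSAP cells was under the expression minimum, the fold of 13.2 is uncertain in size.

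Genes of secreted signals were found in both directions. The chemokine Ccl3 read 8.39, 8.29 and 8.29 in HC11-FL and 11.59, 11.69 and 11.72 in HC11-ΔSAP arrays (10.2-fold, log2 SE 0.074, adjusted p = 1.4e-07). Epiregulin (Ereg), a ligand of the EGF receptor, read 6.41, 6.29 and 6.54 and 9.47, 9.54 and 9.62 in the same order and rose 8.75-fold. In both genes the gap between the strains was many times the spread within a strain. Pappa, a protease that cleaves IGF binding proteins, rose 6.2-fold, and 2 such binding proteins, Igfbp4 and Igfbp3, rose 2.69-fold and 2.68-fold while Igfbp7 fell 2.11-fold. Fam20c, the kinase of secreted proteins in the Golgi, rose 7.12-fold. The plasma protein S gene Pros1 rose 7.3-fold from a level under the expression minimum, and its relative Gas6, which like protein S binds receptors of the TAM family, rose 3.52-fold from a mean of 7.06 to 8.88.

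In the list of growth factor ligands and receptors 6 of 57 expressed members rose (10.5%) and 6 fell (10.5%), with a median of 0.03. Beside Epha7, Ereg, Gas6 and the binding proteins Igfbp3 and Igfbp4, the receptor Fgfr1 rose 2.14-fold. The members that fell were the VEGF receptor Flt1 (3.56-fold), the ligands Pdgfc (3.23-fold), Kitl (2.71-fold) and Pdgfb (2.01-fold), Efnb2 and Igfbp7. Of 48 TGF-beta and BMP genes 3 rose (6.25%) and 4 fell (8.33%). The ligands moved apart: Tgfb2 rose 2.02-fold, Tgfb3 fell 2.46-fold and the activin subunit Inhbb fell 2.85-fold. The co-receptor Tgfbr3 fell 3.35-fold. Of 59 Wnt and Notch genes 1 rose (1.69%, near the 2.12% of genes outside cell division), the Wnt deacylase Notum (4.42-fold). The 2 that fell (3.39%, against 1.34%) were the Wnt enhancer Rspo3 and the receptor Ror1 (2.02-fold). Rspo3 read 8.25, 8.34 and 8.41 in HC11-FL and 5.82, 6.03 and 6.09 in HC11-ΔSAP arrays, 5.11-fold lower. Notum restrains Wnt signalling and R-spondins enhance it.

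Inflammatory genes split. Of 55 expressed members 8 rose by all filters (14.5%) and 5 fell (9.09%). At any fold 22 were higher (40%) and 9 lower (16.4%), with a median log2 fold change of 0.17. Saa1 and Saa2, acute phase proteins with near-identical sequences, rose 3.15-fold and 2.79-fold, the lipopolysaccharide co-receptor Cd14 2.83-fold and complement factor B (Cfb) 2.56-fold. The chemokines Cxcl1, Cx3cl1 and Cxcl12 rose 2.44, 2.16 and 2.08-fold, and the lipopolysaccharide binding protein Lbp 2.01-fold. Against these stood the pentraxin Ptx3, which read 7.81, 7.94 and 7.76 in HC11-FL and 4.19, 4.67 and 4.54 in HC11-ΔSAP arrays (10.3-fold lower, adjusted p = 7.9e-07). Mmp3, C1s1 (2.4-fold), Orm1 (2.06-fold) and Tnfaip2 (2.06-fold) were the others that fell. Members of this list thus moved in opposite directions within 1 comparison. Of 50 interferon response and antigen presentation genes 1 rose (2%), Ifi27 (2.36-fold), and 1 fell (2%), Trim30a (3.26-fold). These shares are near the 2.12% and 1.34% of genes outside cell division. Trim30a read exactly the same value in all 3 HC11-ΔSAP arrays.

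Several feedback regulators of the MAP kinase pathway rose. Of 36 expressed immediate early and AP-1 genes 4 rose by all filters (11.1%) and 1 fell (2.78%), and at any fold 13 were higher (36.1%) and 1 lower (2.78%). Outside cell division these shares were 2.12%, 1.34%, 16.3% and 10.7%. Dusp1 and Dusp6, phosphatases of MAP kinases, rose 2.95-fold and 2.43-fold, Ier3 2.5-fold and Spry2, a Sprouty inhibitor of receptor kinase signalling, 2.01-fold. Dusp6 read 7.52, 7.38 and 7.44 in HC11-FL and 8.69, 8.75 and 8.75 in HC11-ΔSAP arrays. Spry1 and Etv5 were higher by 0.95 and 0.89 on the log2 scale, short of the fold minimum. Ier5 fell 2.43-fold.

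Amino acid transport and arginine use showed some of the largest rises. Slc7a2, a carrier of arginine and other cationic amino acids, read 5.85, 6.0 and 5.89 in HC11-FL and 9.38, 9.38 and 9.51 in HC11-ΔSAP arrays (11.4-fold, log2 SE 0.06, adjusted p = 4.7e-08). Arg2, the mitochondrial arginase, read 5.95, 5.89 and 6.0 and 8.46, 8.65 and 8.64 and rose 6.22-fold. The glutamine carrier Slc38a1 rose 4.63-fold, the glutamate carrier Slc1a3 2.91-fold and the cystine carrier Slc7a11 2.39-fold, with Slc36a4 at 2.22-fold. A second probeset of Slc38a1 rose 4.99-fold. The largest fall of a transporter was that of Slc15a2, which imports di- and tripeptides. It read 9.62, 9.77 and 9.73 in HC11-FL and 5.48, 5.76 and 5.58 in HC11-ΔSAP arrays, 17.1-fold lower (log2 SE 0.075, adjusted p = 5.6e-08). The glutamine synthetase Glul fell 2.22-fold and the stress gene Nupr1 2.26-fold. In the whole list of amino acid supply, 6 of 49 expressed members rose (12.2%) and 3 fell (6.12%). At any fold 11 were higher (22.4%) and 11 lower (22.4%). Over all 238 expressed solute carriers (Slc symbols) 15 rose and 3 fell, where 2.12% and 1.34% of genes outside cell division did. The iron exporter Slc40a1 was the other large loss, at 9.48, 9.57 and 9.46 in HC11-FL and 6.8, 6.81 and 6.87 in HC11-ΔSAP arrays (6.4-fold).

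Enzymes against oxidants were higher in part. Nqo1, a quinone reductase, read 4.54, 4.68 and 4.84 in HC11-FL and 7.27, 7.14 and 7.17 in HC11-ΔSAP arrays (5.69-fold, adjusted p = 5.6e-07). The extracellular superoxide dismutase Sod3 read 5.22, 5.14 and 5.3 and 7.63, 7.61 and 7.71 and rose 5.38-fold. Metallothionein Mt2 rose 2.83-fold, the aldehyde oxidase Aox1 2.4-fold, Cyp2j6 2.71-fold and the exporter Abcc3 2.36-fold. Against these, Nox4, an NADPH oxidase, fell 3.31-fold, the glutathione transferases Mgst1 and Gsto1 fell 2.94-fold and 2.05-fold, and Cyp1b1 and Abcb1b fell 2.55-fold and 2.4-fold. Of 56 expressed members of the list 6 rose (10.7%) and 5 fell (8.93%) by all filters. At any fold 23 were higher (41.1%) and 10 lower (17.9%), with a median of 0.16.

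Lysosomal genes were shifted upwards by small amounts. Of 56 expressed members 25 were higher (44.6%) and 2 lower (3.57%) at any fold, against 16.3% and 10.7% of genes outside cell division, with a median log2 fold change of 0.25. By all filters 3 rose (5.36%) and 2 fell (3.57%). The hexosaminidase subunit Hexa rose 3.8-fold, from 8.43, 8.4 and 8.61 to 10.3, 10.45 and 10.47, and the cathepsins Ctsz and Ctsf rose 2.25-fold and 2.03-fold. Galc, which degrades galactosylceramide, and the cholesterol binding protein Npc2 fell 2.34-fold and 2.41-fold. Outside the list, the glycoprotein hydrolase Aga read 6.55, 6.76 and 6.55 in HC11-FL and 9.12, 9.33 and 9.41 in HC11-ΔSAP arrays and rose 6.34-fold (adjusted p = 6.8e-07). Further hydrolases, named after their values were seen, were Ppt2 (3.57-fold), Dnase2a (2.26-fold), the heparan sulfatase Sgsh (2.17-fold) and the sphingolipid activator Gm2a (2.06-fold), all higher, and the cathepsin Ctsw, which fell 2.54-fold.

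Genes that build sugar chains on proteins had no list of their own. Ndst4, which deacetylates and sulfates heparan sulfate, read 3.13, 3.11 and 2.79 in HC11-FL and 5.59, 6.0 and 5.93 in HC11-ΔSAP arrays. It lay under the expression minimum in HC11-FL cells, and its fold of 7.12 is uncertain in size. Of 12 expressed Galnt genes, which start O-linked chains, 2 rose by all filters (Galnt12, 2.64-fold, and Galnt7, 2.53-fold) and 0 fell. At any fold 7 were higher and 1 lower, also at an unadjusted p under 0.05, with a median of 0.62. Of 9 expressed O-sulfotransferases of heparan sulfate 2 rose by all filters (Hs6st2, 4.28-fold, and Hs3st1, 2.31-fold) and 0 fell, while at any fold 2 were higher and 2 lower (3 and 2 at an unadjusted p under 0.05 in limma). Further genes that rose, named after their values were seen, were the heparan sulfate carriers Gpc4 (4.87-fold) and Sdc3 (2.56-fold), Gxylt2 (4.46-fold), Gcnt1 (3.23-fold), Fut9 (2.3-fold) and St3gal3 (2.27-fold). Pxylp1, a phosphatase that acts on the linkage xylose of proteoglycans, fell 2.07-fold. In the list of proteases and modifiers of the matrix, Sulf2, which removes sulfate from heparan sulfate, rose 2.05-fold.

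The rest of the 25 largest rises belonged to varied functions. Tbx18, a T-box transcription factor, read 6.38, 6.38 and 6.41 in HC11-FL and 9.53, 9.48 and 9.35 in HC11-ΔSAP arrays (8.35-fold). Fbln5, which takes part in elastic fibre assembly, read 5.89, 5.82 and 6.23 and 8.96, 9.05 and 9.06 (8.23-fold). In both genes every HC11-ΔSAP array lay far above every HC11-FL array. Arhgap24 rose 8.07-fold, the cyclic nucleotide phosphodiesterases Pde3a and Pde1c 6.04-fold and 5.89-fold, the integrin ligand Edil3 7.2-fold from a level under the expression minimum, butyrylcholinesterase (Bche) 5.63-fold, Sectm1b 5.7-fold and the unnamed gene model Gm8995 8.17-fold. Over the 25 genes the folds ran from 5.63 to 17.6, the SE on the log2 scale from 0.047 to 0.14 and the adjusted p up to 6.4e-06, that of Ndst4. Of the 273 genes that rose 13 had a mean under the expression minimum in HC11-FL cells.

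The largest fall of all was that of Dock11, an activator of Cdc42. It read 8.16, 8.26 and 8.33 in HC11-FL and 3.24, 3.32 and 2.84 in HC11-ΔSAP arrays (log2 difference -5.12, SE 0.12, adjusted p = 1.9e-07). All HC11-ΔSAP values lie under the expression minimum, and the fold of 34.7 is uncertain in size.

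**Figure D3:**
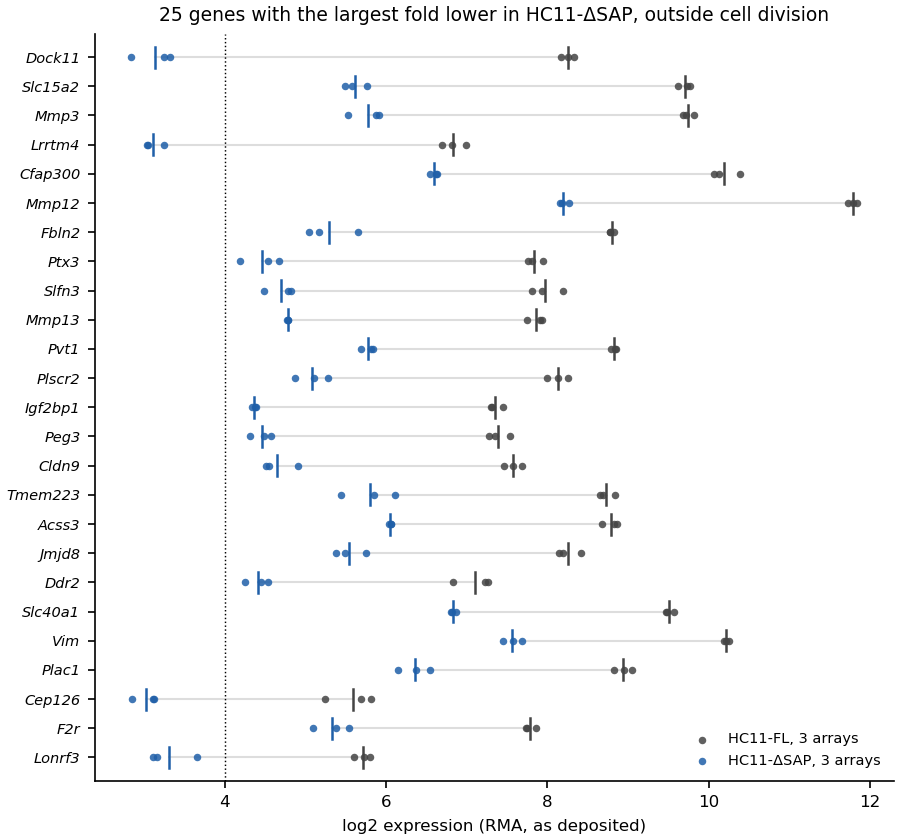
Log2 expression as deposited (x-axis) of the 25 genes outside cell division with the largest fold lower in HC11-ΔSAP cells, with 1 point per array (grey HC11-FL, blue HC11-ΔSAP), a tick at each strain's mean and a dotted line at the expression minimum of 4. The strains do not overlap for any of the genes, and the HC11-ΔSAP means of Dock11, Lrrtm4, Cep126 and Lonrf3 lie under the minimum.

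Matrix metallopeptidases, which degrade extracellular proteins, were prominent among the losses. The stromelysin Mmp3 read 9.68, 9.72 and 9.82 in HC11-FL and 5.53, 5.87 and 5.92 in HC11-ΔSAP arrays (15.6-fold lower, log2 SE 0.19, adjusted p = 4.7e-06). The elastase Mmp12 read 11.72, 11.84 and 11.78 and 8.15, 8.26 and 8.18 (12-fold), and the collagenase Mmp13 7.94, 7.91 and 7.75 and 4.79, 4.79 and 4.77 (8.47-fold). Mmp12 remained well expressed in HC11-ΔSAP cells, while Mmp13 came close to the minimum. Of 13 expressed Mmp genes 4 fell and 1 rose. The fourth loss was Mmp19 (2.04-fold), and the gelatinase Mmp2 rose 2.72-fold, from 7.78, 7.83 and 7.94 to 9.3, 9.31 and 9.27. Among the other members of the list the cross-linking enzyme Lox read 10.41, 10.57 and 10.47 in HC11-FL and 8.2, 8.3 and 8.34 in HC11-ΔSAP arrays (4.61-fold lower), Loxl1 fell 2.1-fold, and the ADAMTS proteases Adamts16 and Adamts4 fell 3.63-fold and 3.2-fold. The plasminogen activator Plat rose 2.4-fold. In all 3 of 50 expressed members rose (6%) and 9 fell (18%).

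The promoters of Mmp3 (chr9:7445572-7445871, plus strand) and Mmp13 (chr9:7272264-7272563, plus strand) are shown because both genes lost most of their signal and both windows hold the letters TGANTCA of an AP-1 motif, in capitals (RefSeq, GRCm38.p6).
Mmp3: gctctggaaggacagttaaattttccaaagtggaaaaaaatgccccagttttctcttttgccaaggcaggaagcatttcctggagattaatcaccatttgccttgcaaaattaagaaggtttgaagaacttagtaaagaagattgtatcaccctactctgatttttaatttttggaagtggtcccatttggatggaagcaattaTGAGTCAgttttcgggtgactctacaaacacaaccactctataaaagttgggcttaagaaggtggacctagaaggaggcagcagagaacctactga
Mmp13: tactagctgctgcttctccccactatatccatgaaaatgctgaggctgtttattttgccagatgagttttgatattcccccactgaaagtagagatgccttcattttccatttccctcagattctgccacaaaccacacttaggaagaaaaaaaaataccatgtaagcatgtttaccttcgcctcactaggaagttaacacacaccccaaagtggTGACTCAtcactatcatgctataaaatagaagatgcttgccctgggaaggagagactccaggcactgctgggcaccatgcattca
The letters begin 46 bases before the start in Mmp3 and 35 bases before it in Mmp13. The motif, which reads nearly the same on both strands, stood in 9.36% of promoters of genes that fell outside cell division (16 of 171), in 7.79% of those of genes that rose and in 5.44% of all promoters.

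Mmp3, Mmp12 and Mmp13 lie side by side on chromosome 9, and their neighbours moved with them. In the order of RefSeq genes (GRCm38.p6), 4 consecutive expressed genes fell from Dcun1d5 (2.77-fold) through Mmp13, Mmp12 and Mmp3. After Mmp10, which was lower without reaching the fold minimum (log2 difference -0.41), Tmem123 (3.03-fold) and Birc2 (3.38-fold) fell. A second probeset of Birc2 was 1.94-fold lower, short of the fold minimum. Birc3 was higher by 0.62, and a second run of 4 followed, made of Yap1, Cfap300, Cep126 and the progesterone receptor Pgr. Yap1, the co-activator of TEAD factors in the Hippo pathway, read 11.11, 11.04 and 11.05 in HC11-FL and 8.82, 8.81 and 8.9 in HC11-ΔSAP arrays (4.65-fold lower, log2 SE 0.043, adjusted p = 7.4e-08). The cilia and flagella gene Cfap300 read 10.07, 10.38 and 10.13 and 6.55, 6.62 and 6.63 (12.1-fold). Cep126 and Pgr had HC11-ΔSAP means of 3.03 and 3.68, under the expression minimum. On either side, Casp1 was higher by 0.97 and Dync2h1 and Arhgap42 were lower by less than the fold minimum (log2 differences of -0.6 and -0.35). The genes here that fell were also below their HC11-FL means in HC11-mutB1 cells, so the low level was not particular to HC11-ΔSAP cells. Dcun1d5, Yap1, Cfap300 and Mmp3 had HC11-mutB1 means of 9.45, 8.95, 7.49 and 3.65. The HC11-ΔSAP means were 9.33, 8.85, 6.60 and 5.77, and the HC11-FL means 10.80, 11.06, 10.19 and 9.74. Beside the metallopeptidases and the inhibitors of apoptosis Birc2 and Birc3, the genes of this segment belong to different families. Their position is a description, and whether the DNA of the segment differs between the strains was not tested.

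**Figure D4:**
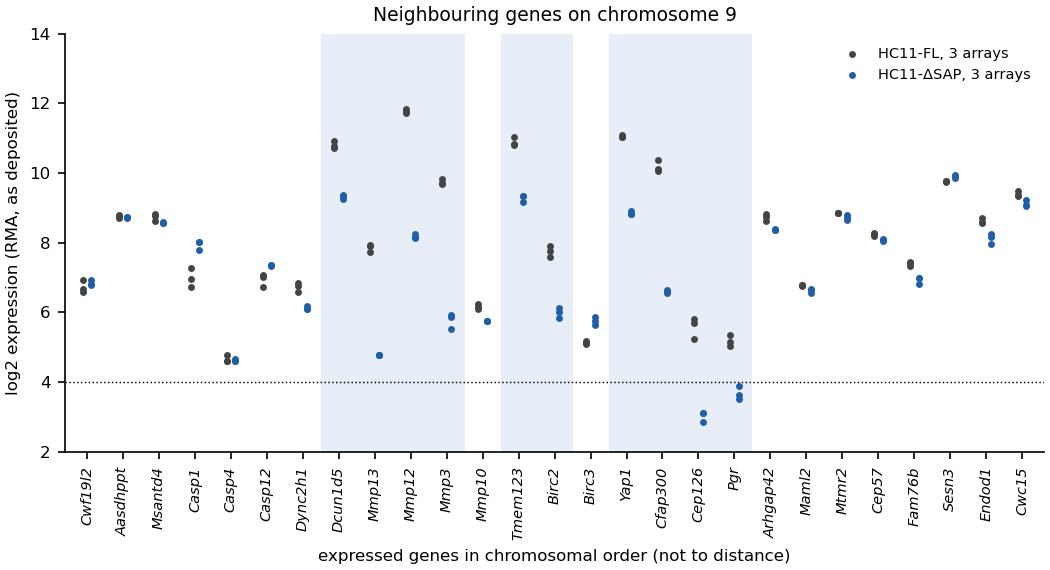
Log2 expression as deposited (y-axis) of neighbouring expressed genes on chromosome 9 in their order along the chromosome (x-axis, not to distance), with 1 point per array (grey HC11-FL, blue HC11-ΔSAP). Shaded genes passed all filters, all of them lower in HC11-ΔSAP cells, and the dotted line marks the expression minimum of 4. Mmp10 and Birc3 lie between the shaded genes without passing.

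Only 1 other run of at least 3 neighbours changed the same way, on chromosome 19, where Rnls (2.04-fold), Lipk (2.1-fold) and Ankrd22 (2.12-fold) rose. In all, 29 of the 273 genes that rose (10.6%) and 28 of the 275 that fell (10.2%) had an adjacent expressed gene that passed in the same direction. Over all genes 2.07% rose and 2.09% fell. The share with such a neighbour under a random order was not computed, so these counts are a description. Those that fell include the genes of the chromosome 9 segment.

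In the Hippo list 2 of 40 expressed members rose (5%) and 2 fell (5%, Yap1 and Birc2), against 2.12% and 1.34% of genes outside cell division. Birc2 passed by only 1 of its 2 probesets. The risers were the lysophosphatidic acid receptor Lpar1 (4.04-fold, from 5.87, 5.78 and 6.01 to 7.9, 7.9 and 7.9) and Tgfb2. For Lpar1, 1 value is repeated exactly in all HC11-ΔSAP arrays. The paralogue of Yap1, Wwtr1, was higher by 0.53. Of the matricellular CCN genes, Ccn1 and Ccn2 are common readouts of TEAD factors. Ccn1 was lower and Ccn2 higher, with log2 differences of -0.82 and 0.89, neither by 2-fold. Another CCN gene, Ccn4, which is not taken as such a readout here, fell 4.41-fold, from 8.37, 8.41 and 8.33 to 6.16, 6.16 and 6.37.

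Of 56 expressed matrix genes 3 rose (5.36%) and 6 fell (10.7%), with a median of -0.0023. Fbln2, a fibulin of elastic fibres and basement membranes, read 8.78, 8.78 and 8.83 in HC11-FL and 5.65, 5.05 and 5.17 in HC11-ΔSAP arrays (11.4-fold lower, adjusted p = 2e-06), the opposite of its relative Fbln5. Tenascin-C (Tnc), a matricellular protein of injured and strained tissue, read 9.23, 9.27 and 9.22 and 7.72, 7.5 and 7.65 (3.07-fold lower). The collagens Col12a1, Col17a1 and Col11a1 fell 2.77, 2.71 and 2.37-fold. Decorin (Dcn), a proteoglycan that binds collagen, rose 3.51-fold and Col6a1 2.49-fold. Fibronectin (Fn1), near the top of the scale at means of 12.84 and 12.86, differed by 0.012 (adjusted p = 0.9). The collagen receptor Ddr2 read 6.82, 7.26 and 7.22 in HC11-FL and 4.54, 4.25 and 4.45 in HC11-ΔSAP arrays (6.45-fold lower). Decorin is also a fibroblast marker. Of the 8 expressed fibroblast markers 1 was higher and 3 lower at any fold, with a median log2 fold change of -0.16, and the part of other cell types in these values was not tested.

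Genes that respond to low oxygen and genes of glycolysis were lower as a group. Of 42 expressed members 30 were lower (71.4%) and 1 higher (2.38%) at any fold, against 10.7% and 16.3% of all genes outside cell division. By all filters 9 fell (21.4%) and 1 rose (2.38%). The median log2 fold change was -0.55. Bnip3, a mitophagy receptor induced by hypoxia, read 10.59, 10.63 and 10.6 in HC11-FL and 8.42, 8.5 and 8.56 in HC11-ΔSAP arrays (4.32-fold lower, log2 SE 0.048, adjusted p = 1.5e-07), and its second probeset fell 4.19-fold. The carbonic anhydrase Car12 read 8.57, 8.57 and 8.57 and 6.29, 6.28 and 6.54 (4.58-fold), with 1 value repeated in all HC11-FL arrays. The strains differed by about 2 log2 units in both genes. The adenylate kinase Ak4 fell 3.46-fold, and 2.09-fold by its second probeset. Fam162a fell 2.97-fold, the phosphofructokinase Pfkl 2.93-fold and the pyruvate dehydrogenase kinase Pdk1 2.6-fold. The enolase Eno3 fell 2.47-fold, the collagen prolyl hydroxylase P4ha1 2.42-fold and Higd1a 2.06-fold.

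The decrease reached well expressed enzymes without passing the fold minimum. Lactate dehydrogenase (Ldha) read 12.57, 12.53 and 12.65 in HC11-FL and 11.96, 11.89 and 11.98 in HC11-ΔSAP arrays, the mutase Pgam1 differed by -0.78 and the glucose carrier Slc2a1 by -0.68 on the log2 scale. The only member that rose was the enolase Eno2 (2.62-fold, from 4.23, 4.31 and 4.35 to 5.81, 5.48 and 5.76). In the respiratory chain list 0 of 55 expressed members passed all filters, with 5 higher and 2 lower at any fold, 12 and 4 at an unadjusted p under 0.05 in limma, and a median of 0.031.

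The promoters of Bnip3 (chr7:138909457-138909756, minus strand), Fam162a (chr16:36071512-36071811, minus strand) and P4ha1 (chr10:59323046-59323345, plus strand) are shown because these members hold the letters ACGTGC of the hypoxia response element, on either strand and in capitals (RefSeq, GRCm38.p6). Of the 9 members that fell 4 held them, with Ak4 in 1 of its 4 windows, and Car12, Pfkl, Pdk1, Eno3 and Higd1a did not.
Bnip3: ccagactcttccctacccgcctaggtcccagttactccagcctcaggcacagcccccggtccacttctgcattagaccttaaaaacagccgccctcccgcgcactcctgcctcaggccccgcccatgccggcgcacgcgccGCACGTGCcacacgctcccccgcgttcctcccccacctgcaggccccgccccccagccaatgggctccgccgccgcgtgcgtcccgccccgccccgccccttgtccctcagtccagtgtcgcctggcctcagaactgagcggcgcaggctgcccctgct
Fam162a: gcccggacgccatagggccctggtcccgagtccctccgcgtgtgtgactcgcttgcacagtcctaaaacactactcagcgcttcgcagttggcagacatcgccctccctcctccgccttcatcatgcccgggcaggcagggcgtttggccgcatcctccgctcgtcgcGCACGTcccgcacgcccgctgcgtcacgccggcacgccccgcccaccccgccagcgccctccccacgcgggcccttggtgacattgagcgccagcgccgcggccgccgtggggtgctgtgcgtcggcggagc
P4ha1: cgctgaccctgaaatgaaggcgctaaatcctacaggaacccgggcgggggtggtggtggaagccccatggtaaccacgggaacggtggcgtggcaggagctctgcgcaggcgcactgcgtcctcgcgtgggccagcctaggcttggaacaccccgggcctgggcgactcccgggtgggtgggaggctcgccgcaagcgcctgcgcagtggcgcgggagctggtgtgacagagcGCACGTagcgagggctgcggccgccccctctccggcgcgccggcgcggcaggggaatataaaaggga
The letters begin 109 and 107 bases before the start in Bnip3, where the strands overlap, 82 bases before it in Fam162a and 17 in P4ha1. The motif stood in 18 of 171 promoters of genes that fell outside cell division (10.5%), 5.33% of those of genes that rose and 7.82% of all. The core of the antioxidant response element, TGACNNNGC, stood in 19.3% of promoters of genes that fell outside cell division, in 12.3% of those of genes that rose and in 13.9% of all. The AP-1 letters can overlap those of the antioxidant element.

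Vimentin and 2 keratins, genes of intermediate filaments, fell. Vimentin (Vim) read 10.19, 10.25 and 10.21 in HC11-FL and 7.57, 7.45 and 7.68 in HC11-ΔSAP arrays (6.27-fold lower, log2 SE 0.063, adjusted p = 1.9e-07). The basal keratin Krt5 read 9.49, 9.47 and 9.5 and 7.49, 7.57 and 7.7 (3.73-fold lower), and the luminal keratin Krt18 9.53, 9.42 and 9.36 and 8.19, 8.0 and 8.04 (2.56-fold lower). Their partners moved less. Krt14 differed by -0.27 (adjusted p = 0.0013) and Krt8 by -0.32 (adjusted p = 0.0043). The call of Krt8 was lost without HC11-FL array 1 or 3 or HC11-ΔSAP array 2 or 3 (adjusted p = 0.017 to 0.019), and also with the 6 arrays alone in the fit (0.019), after quantile normalization (0.011) and with the replicate number as a block (0.011). Of 25 expressed keratin genes 2 fell and 0 rose by all filters, and 6 were lower and 1 higher at an unadjusted p under 0.05 in limma.

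In the list of mammary lineage and milk genes 1 of 42 expressed members rose (2.38%) and 4 fell (9.52%). Beside the keratins, lactoferrin (Ltf) fell 3.42-fold, with 1 value repeated in all HC11-ΔSAP arrays, and Pgr fell 2.82-fold. Id4, a regulator of basal cells, rose 2.79-fold, from 7.62, 7.72 and 7.52 to 9.03, 9.13 and 9.14. Gata3, a luminal factor, was lower (log2 difference -0.91), and Esr1 and Trp63 were higher by 0.66 and 0.69, all under the fold minimum. The basal and luminal members thus did not separate by direction.

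Genes of epithelial-mesenchymal transition, a programme in which epithelial cells lose their junctions, changed often but in both directions. Of 34 expressed members 6 rose (17.6%) and 2 fell (5.88%), against 2.12% and 1.34% of genes outside cell division. At any fold 13 were higher (38.2%) and 8 lower (23.5%), against 16.3% and 10.7%. Cdh2, Fbln5, Tgfb2, S100a4 (2.25-fold) and the transcription factors Twist2 (2.38-fold) and Prrx1 (2.27-fold) rose, while Vim and Lox fell. Twist2 read 4.77, 4.6 and 4.97 in HC11-FL and 5.97, 6.09 and 6.03 in HC11-ΔSAP arrays. Snai1 and Zeb2 were slightly lower (log2 differences of -0.4 and -0.42), and Snai2 and Zeb1 did not pass the test (adjusted p = 0.72 and 0.34).

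Cytoskeletal targets of Mkl1 and SRF were lower more often than higher at any fold. Of 50 expressed members 6 were higher (12%) and 15 lower (30%), against 16.3% and 10.7% of genes outside cell division, with a median log2 fold change of -0.11. The largest differences were those of Ccn2, Ccn1 and Acta2, the smooth muscle actin, which was lower (log2 difference -0.75, adjusted p = 3.8e-05). By all filters 0 rose and 0 fell, where the shares outside cell division were 2.12% and 1.34%. In the same limma fit 13 were higher and 20 lower at an unadjusted p under 0.05. Among integrins and focal adhesion genes 0 of 40 rose and 1 fell (2.5%), the caveolar protein Cavin2 (3.05-fold). Cavin2 read exactly the same value in all 3 HC11-ΔSAP arrays. At any fold 14 members were higher (35%) and 8 lower (20%), with 19 and 11 at an unadjusted p under 0.05.

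Ribosomal proteins were lower by small amounts. None of 44 expressed members passed the fold minimum, and 15 were lower (34.1%) and 0 higher (0%) at any fold. These counts were 30 and 2 at an unadjusted p under 0.05 in limma, and the median was -0.21. With 1 probeset per gene the largest difference was that of Rps29, at -0.57 (adjusted p = 0.0012). Other probesets of Rps29 differed by -0.67 to -0.78. Several of these genes have processed copies in the genome, which the probes may not separate. Of 60 genes of sterol and fatty acid metabolism 3 rose (5%) and 1 fell (1.67%), Fads3 (2.44-fold). The risers were the lipid exporters Abca1 (2.83-fold) and Abcg1 (2.04-fold) and the fatty acid binding protein Fabp4 (2.52-fold). At any fold 10 were higher (16.7%) and 19 lower (31.7%). Fabp4 is also an adipocyte marker, while Adipoq, Lep and Pparg lay under the expression minimum. The p53 gene is mutated in this line, so the p53 targets describe cells without an intact p53 gene. Of 32 p53 targets 0 rose (10 were higher at an unadjusted p under 0.05 in limma) and 1 fell (3.12%). The latter was Ckap2 (2.43-fold lower), which also acts in mitosis.

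**Figure D5:**
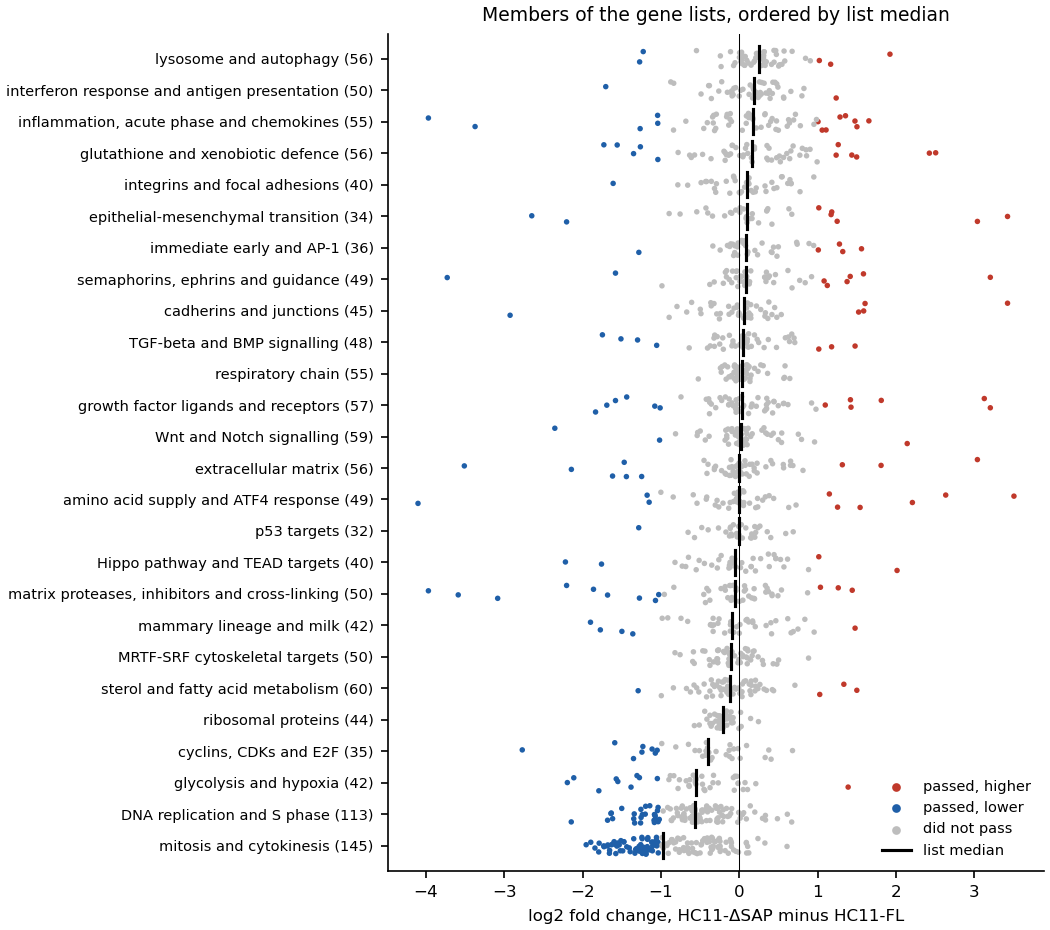
Log2 fold change of HC11-ΔSAP minus HC11-FL cells (x-axis) for the expressed members of 26 gene lists (y-axis, with the number of members), ordered by the list median (black tick). Red and blue points passed all filters. The mitosis, replication and glycolysis and hypoxia lists have medians of -0.97, -0.56 and -0.55, and the lysosome list has the highest, at 0.25.

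The remaining large falls outside cell division spanned several functions. The lncRNA Pvt1, next to Myc in the genome, read 8.84, 8.79 and 8.85 in HC11-FL and 5.84, 5.81 and 5.68 in HC11-ΔSAP arrays (8.3-fold lower). Igf2bp1, an mRNA binding protein, read 7.3, 7.31 and 7.45 and 4.34, 4.37 and 4.39 (7.95-fold), and the imprinted zinc finger gene Peg3 7.35, 7.53 and 7.27 and 4.31, 4.57 and 4.48 (7.62-fold). In each of them every HC11-ΔSAP array lay far below every HC11-FL array. Slfn3 fell 9.7-fold, the phospholipid scramblase Plscr2 8.23-fold, the acyl-CoA synthetase Acss3 6.65-fold, the thrombin receptor F2r 5.44-fold and Plac1 6-fold. Tmem223, Jmjd8, Lonrf3 and Cep126 fell 7.59, 6.56, 5.3 and 5.89-fold. Over the 25 genes the folds ran from 5.30 to 34.7, the SE on the log2 scale from 0.046 to 0.19 and the adjusted p up to 2.2e-05, that of Lonrf3. Of the genes that fell 14 had a mean under the expression minimum in HC11-ΔSAP cells.

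HC11-mutB1 cells give a further point for the levels of these genes, without a test here since the comparisons share the HC11-FL arrays. Among the genes that rose, Slc7a2 lay at a mean of 9.37 and Aga at 9.17 in HC11-mutB1 cells, beside 9.42 and 9.29 in HC11-ΔSAP and 5.91 and 6.62 in HC11-FL cells. Ccl3 lay at 8.37, beside 11.67 and 8.32, and Epha7 at 4.76, beside 8.75 and 5.54. The first pair was thus near the HC11-ΔSAP level in HC11-mutB1 cells, while Ccl3 was near the HC11-FL level and Epha7 below it. Of the 25 largest rises outside cell division, 5 had a HC11-mutB1 mean no more than 0.5 below the HC11-ΔSAP mean on the log2 scale, 4 (Ccl3, Epha7, Pros1 and Ndst4) no more than 0.5 above the HC11-FL mean, and 16 lay between. Of the 25 largest falls, 18 had a HC11-mutB1 mean no more than 0.5 above the HC11-ΔSAP mean and 7 lay between the strains. Dock11 lay at 2.99 in HC11-mutB1 cells and Mmp12 at 7.64, beside 3.13 and 8.2 in HC11-ΔSAP cells. Vim, which is among the 25, was intermediate, at 9.01 between 10.21 and 7.57. Other genes that fell had HC11-mutB1 means above the HC11-FL level. Examples not among the 25, chosen after their values were seen, were Krt5, Car12, Kif26b and Tnc. Krt5 at 10.64, Car12 at 9.19 and Kif26b, a kinesin, at 7.98 lay above the HC11-FL means of 9.49, 8.57 and 7.22. Tnc lay at 10.34, beside 9.24 in HC11-FL cells. Of the 6 largest falls within cell division, Nuf2, Cenpe, Nek2 and Shcbp1 had HC11-mutB1 means of 7.86, 7.07, 7.74 and 7.47. Their HC11-FL means were 7.60, 6.60, 7.67 and 6.92. Ccnd2, at 7.13, and Mcm6, at 8.06, lay below their HC11-FL means of 8.48 and 8.34.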

How the data were processed

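RNA of 9 samples in 3 strains was hybridised to Affymetrix mouse gene arrays, and the 6 arrays of HC11-FL and HC11-ΔSAP cells are compared here. The authors deposited log2 expression values of 34760 probesets after RMA, which corrects background, brings all arrays to 1 distribution and summarises probes. Per the submitters' processing notes this was done with the affy package in R 2.10.0. Scans and scan dates were not used here, so a scan batch was not examined. The number of arrays limits the precision. By GEO's platform annotation 21640 probesets have 1 gene symbol, 1321 several and 11799 none, and 21553 of the first were found in RefSeq. Each gene is represented by the probeset with the highest mean over the 6 arrays.

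limma 3.58.1 in R 4.3.3 was fitted to all 9 arrays with 1 mean per strain (6 residual and 1.93 prior degrees of freedom), after the study's methods, with the Benjamini-Hochberg adjustment taken over the whole table. The script was tested on simulated data. Named genes are the 25 with the largest fold per direction outside cell division among those that passed with strains apart, 6 cell division genes per direction, up to 5 members per list with the largest change, Mrtfa, Mrtfb, Srf, Tnc, Krt5, Krt8, Krt14, Krt18, Cdh1 and Epcam, the genes next to the expression minimum, runs of at least 3 changed neighbours and relatives of named genes. Other genes were named after their values were seen. The genes compared, the 26 gene lists and 5 marker lists were chosen with earlier results of these data known, so list counts and medians are descriptions. Another list is not reported here. Motif letters were searched on both strands of RefSeq promoters (GRCm38.p6). Alternatives were other fits, scalings, filters, probeset rules, a replicate block and leaving out single arrays.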

Additional observations from a re-analysis of the deposited data

How the results depend on the processing

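The counts of changed probesets and of changed genes outside cell division stayed within 1.5 times their values under every alternative run except the removal of the fold minimum. Without that minimum 2049 probesets were lower and 2414 higher, and outside cell division 1377 genes were lower and 2100 higher. With each array left out in turn, 289 to 323 probesets were lower and 291 to 323 higher, and 163 to 175 genes outside cell division were lower and 259 to 288 higher. Leaving out the probesets with repeated values gave 269 lower and 277 higher probesets. Arrays with the same replicate number deviated together only weakly (r = 0.26, 0.079 and 0.0058), and only those numbered 1 correlated best with each other, so the numbers were not taken as pairs. With the replicate number as a block 308 probesets were lower and 302 higher, and 171 and 270 genes outside cell division. Of 155 named genes 149 kept their side of the threshold and their direction under each alternative that gave them a value, out of 13. Leaving out the probesets with repeated values gave none for 16 of them, Srf included. Krt8, Rpl34, Rps7, Rpl7 and Itga1 lost their call under at least 1. Srf, which was not called and differed by -0.0042, changed sign with arrays centred on their medians (0.0091) and when single arrays were left out, where it ran from -0.025 to 0.0089. The cause was not tested.

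The main limits are the design and the array. Each construct is 1 strain, an empty vector strain was not analysed here, and folds of genes under the expression minimum in 1 strain are uncertain in size. Signal over background of single probes was not examined.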
